A study of Mus musculus with 9 samples.

Results

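Macrophage genes of complement, lipid transport and innate sensing were followed through 3 messenger RNA libraries of sorted mouse olfactory epithelium. They comprised 10 of 21909 gene symbols: the complement genes C1qa, C1qb and C1qc, the apolipoprotein gene Apoe, the lysozyme gene Lyz2, the adaptor gene Tyrobp, the receptor genes Trem2, Csf1r and Cx3cr1, and Ptprc, which encodes CD45. They were chosen because their levels were high in the library sorted by CD54, so those levels are given as a description and carry no test. The tissue was the main olfactory epithelium at 4 weeks of age, and each population had 1 library, with no replicate and no p-value. The HBC library (horizontal basal cells, the reserve stem cells of the epithelium) came from cells positive for a PE-coupled anti-CD54 antibody. CD54 is the protein of Icam1 and is also known from leukocytes. The GBC library (globose basal cells, the dividing neuronal precursors) came from Neurog1-EGFP positive cells. The mOSN library (mature olfactory sensory neurons) came from OMP-ires-EGFP positive cells. The labels give no strain, no sex and no number of animals pooled. ScriptSeq was the kit for HBC and an Illumina mRNA kit that for both others, so kit and population cannot be told apart in any comparison with HBC.

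Tissue macrophages clear dying cells, and the olfactory epithelium, whose neurons turn over throughout life, is known to hold them. C1q, built from an A, a B and a C chain, opens the classical complement pathway by binding antibody or cell debris. Apolipoprotein E carries cholesterol and other lipids and is a ligand of the receptor Trem2, which signals through the adaptor Tyrobp. Csf1r is the receptor on which macrophages depend for growth and survival. Cx3cr1 is the receptor of the neuronal chemokine fractalkine, and CD45 is the tyrosine phosphatase found on all nucleated blood-derived cells.

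RefSeq promoter windows (build GRCm38.p6, 250 bases before to 50 after the start) were at hand for 7 of the 10 genes. They were searched on both strands for AGGAAGT, letters that the myeloid factor PU.1 and other ETS factors are known to bind. The letters stood in 4 of the 7 genes, C1qb, C1qc, Lyz2 and Ptprc, and in 10.7% of all 27025 genes with a window (9.35% of 32851 windows). The shorter letters GAGGAA, which can overlap them, stood in 5 of the 7 genes and 31.3% of all genes, and the AP-1 letters TGANTCA in 1 of the 7 (Trem2) and 8.97% of all genes. These 4 sequences are shown because they hold the letters in common. Each is the 250 bases before the start, 5′ to 3′ on the gene's minus strand, with AGGAAGT or its reverse complement in capitals.
C1qb: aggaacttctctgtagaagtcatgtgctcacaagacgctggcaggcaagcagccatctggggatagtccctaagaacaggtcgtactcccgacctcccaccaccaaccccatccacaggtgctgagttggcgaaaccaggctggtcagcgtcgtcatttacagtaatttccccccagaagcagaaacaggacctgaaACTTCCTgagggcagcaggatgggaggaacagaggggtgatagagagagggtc
C1qc: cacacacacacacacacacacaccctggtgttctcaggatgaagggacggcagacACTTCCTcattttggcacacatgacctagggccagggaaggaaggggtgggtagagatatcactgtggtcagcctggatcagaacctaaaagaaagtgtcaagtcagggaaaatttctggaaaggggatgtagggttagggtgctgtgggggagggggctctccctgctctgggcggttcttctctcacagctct
Lyz2: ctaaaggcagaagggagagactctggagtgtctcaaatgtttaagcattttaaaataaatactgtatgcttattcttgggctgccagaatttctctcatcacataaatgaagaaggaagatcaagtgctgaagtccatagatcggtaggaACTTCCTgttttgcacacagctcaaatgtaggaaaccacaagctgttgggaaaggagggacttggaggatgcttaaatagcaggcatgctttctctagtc
Ptprc: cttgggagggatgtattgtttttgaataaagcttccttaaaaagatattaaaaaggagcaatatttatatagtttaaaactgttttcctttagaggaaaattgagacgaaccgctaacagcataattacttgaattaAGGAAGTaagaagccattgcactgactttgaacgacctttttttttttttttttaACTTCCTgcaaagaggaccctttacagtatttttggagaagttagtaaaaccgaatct
On GRCm38.p6 these stretches are chr4:136886201-136886450 for C1qb, chr4:136892915-136893164 for C1qc, chr10:117282273-117282522 for Lyz2 and chr1:138175306-138175555 for Ptprc. The letters began 53 bases before the start in C1qb, 195 bases before it in C1qc and 100 bases before it in Lyz2. Ptprc held them at 113 and at 58 bases before the start, and a second annotated Ptprc window overlaps this one and shares the match at 58 bases. The windows of Apoe, Trem2 and Cx3cr1 did not contain these letters. A match of letters is no evidence of a bound site, and its absence from a window says nothing about the factor.

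Levels are FPKM, a fragment count set relative to transcript length and sequencing depth, with the authors' interval in brackets. The fragments behind each value were read back from that interval and gave totals of 18123443 for HBC, 18087564 for GBC and 16516700 for mOSN. The 10 genes together held 1.38% of the HBC fragments, 0.00317% of the GBC fragments and 0.00292% of the mOSN fragments. All intervals here cover counting error only. Each sort gene was highest in its own library: Icam1 had 136 FPKM in HBC, against 0.0456 in GBC and 0.349 in mOSN. Neurog1 had 0.0538 FPKM in HBC, against 163 in GBC and 0.0189 in mOSN, and Omp had 71.6 FPKM in HBC, against 427 in GBC and 1487 in mOSN. All 12 markers of horizontal basal cells, Icam1 among them, passed a 4-fold threshold for HBC against GBC and against mOSN. The same held against GBC for 16.5%, and against mOSN for 15.8%, of all genes at 5 FPKM in either library. The HBC library also held markers of T and NK cells, neutrophils and sustentacular cells. In such a pooled library, fewer cells of a type and less RNA per cell cannot be told apart.

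The 3 C1q genes were among the most abundant transcripts of the HBC library and rested on 11 fragments or fewer in each neuronal library. They lie side by side on chromosome 4 (mm9), with C1qb at 136436061 to 136442092, C1qc at 136445717 to 136448829 and C1qa at 136451831 to 136454759, separated by 3625 and 3002 bases. C1qa, the A chain, had 283 FPKM in HBC (interval 277 to 289), against 0.211 in GBC (0.0836 to 0.338) and 0.0307 in mOSN (0 to 0.0921). C1qb, the B chain, had 311 FPKM in HBC (304 to 318), against 0.108 in GBC (0.0114 to 0.205) and 0.198 in mOSN (0.0364 to 0.360). C1qc, the C chain, had 219 FPKM in HBC (212 to 225), against 0.0939 in GBC (0.00992 to 0.178) and 0.156 in mOSN (0.0165 to 0.295). HBC stood far above both others for each chain, and the intervals of GBC and mOSN overlapped. In HBC the A and C chain levels were 0.910 and 0.703 times that of the B chain, so on FPKM the chains of 1 protein complex were within a 1.5-fold range. The HBC fragments were 7779 for C1qa, 8481 for C1qb and 5163 for C1qc, and the range depends on their conversion to FPKM. The chains ranked 47th (C1qb), 52nd (C1qa) and 69th (C1qc) of all symbols in that library. The neuronal values rested on 11, 5 and 5 fragments in GBC and on 1, 6 and 5 in mOSN for C1qa, C1qb and C1qc, so the ratio between chains cannot be read there.

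Apoe (chromosome 7, 20281593 to 20284515, mm9) was the most abundant transcript of the HBC library and the one among the 10 with the highest level in the neuronal libraries. It had 5045 FPKM in HBC (interval 5019 to 5072), against 5.28 in GBC (4.78 to 5.79) and 9.71 in mOSN (8.73 to 10.7). It ranked 1st in HBC, 6813th in GBC and 5313th in mOSN. Apoe is also known from supporting and glial cells, so its level is not a measure of macrophages by itself. Of 12 markers of sustentacular cells, the supporting cells, all above 0 in each library, 7 were highest in HBC and 5 in mOSN (Cyp2g1, Cyp2a5, Sec14l3, Muc2 and Cyp1a2). Their summed level was 2019 FPKM in HBC, against 67.6 in GBC and 235 in mOSN, and in HBC it was carried mainly by Cbr2 (881 FPKM) and Cyp2f2 (748 FPKM). Their part in the Apoe level was not tested. The 11 ensheathing glia markers summed to 24.6 FPKM in HBC, against 2.81 in GBC and 3.93 in mOSN. The most abundant were the neurotrophin receptor gene Ngfr (11.6 FPKM in HBC, against 0.0768 in GBC and 0.0205 in mOSN), called higher in HBC against both, and the receptor gene Erbb3 (5.91, 0.992 and 0.673 FPKM), called higher against mOSN. The glial factor Sox10 had 0.559 FPKM in HBC, Gfap was listed at 0 in mOSN, and the part of glia in the Apoe level was not tested.

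Lyz2 (chromosome 10, 116714597 to 116719328), the lysozyme of macrophages and neutrophils, had 573 FPKM in HBC (interval 565 to 580.3), against 1.93 in GBC (1.41 to 2.46) and 1.31 in mOSN (0.851 to 1.78). Its neighbour Lyz1, 5523 bases away and known as a close copy, had 77.3 FPKM in HBC, against 0.247 in GBC and 0.0830 in mOSN. The transcripts of the 2 genes were not compared here. Lyz2 was the second highest of the 10 in every library. The fragments behind the neuronal values of both copies were not whole numbers (54.8 and 32.3 for Lyz2 in GBC and mOSN, 6.58 and 1.95 for Lyz1), and the sources used here do not say how shared fragments were divided. The split between these 2 genes is therefore uncertain. RefSeq's Lyz1 window holds the AGGAAGT letters at the same place, 100 bases before the start. Set side by side without gaps, the 250 bases before the start were identical at 152 positions (60.8%).

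Tyrobp (chromosome 7, 31198807 to 31202598), the adaptor through which Trem2 and several other myeloid receptors signal, had 186 FPKM in HBC (interval 179.8 to 192), against 1.27 in GBC (0.742 to 1.803) and 0.947 in mOSN (0.441 to 1.45). Trem2 (chromosome 17, 48485726 to 48491598), a receptor for lipids and lipoproteins, had 43.5 FPKM in HBC (41.1 to 45.98) and 0.0411 in GBC (0 to 0.0992), and was listed at 0 in mOSN. The GBC value of Trem2 rested on 2 fragments. The Trem2 level was 0.234 times that of its adaptor in HBC. The adaptor was thus clearly detected in both neuronal libraries, with 23 fragments in GBC and 14 in mOSN, while its receptor had 2 fragments in GBC and was listed at 0 in mOSN.

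Csf1r (chromosome 18, 61265226 to 61290793) had 202 FPKM in HBC (interval 199.8 to 205), against 0.195 in GBC (0.118 to 0.271) and 0.137 in mOSN (0.0636 to 0.2097). Cx3cr1 (chromosome 9, 119957811 to 119977400) had 48.0 FPKM in HBC (47.0 to 49.1), against 0.0492 in GBC (0.00519 to 0.0932) and 0.0458 in mOSN (0 to 0.0916). Ptprc (chromosome 1, 139959438 to 140071882) had 63.4 FPKM in HBC (62.5 to 64.3), against 0.0859 in GBC (0.0236 to 0.148) and 0.101 in mOSN (0.0334 to 0.168). All 3 were far higher in HBC, and their GBC and mOSN intervals overlapped. Both receptors are typical of monocytes and macrophages, whereas CD45 is shared by all leukocytes. On FPKM the order of the 10 levels in HBC was Apoe, Lyz2, C1qb, C1qa, C1qc, Csf1r, Tyrobp, Ptprc, Cx3cr1 and Trem2. No interval overlapped that of its neighbour in the order. These intervals do not cover the conversion of fragments to FPKM, which differed between libraries. For Ptprc, 1 FPKM stood for 338 fragments in HBC, against 88.5 in GBC and in mOSN, so its place in the order depends on that conversion. For C1qa, C1qb and C1qc, 1 FPKM stood for 27.5, 27.3 and 23.6 fragments in HBC, against 52.2, 46.3 and 53.2 in GBC. The places of the C1q genes in the order depend on the conversion as well.

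**Figure D1:**
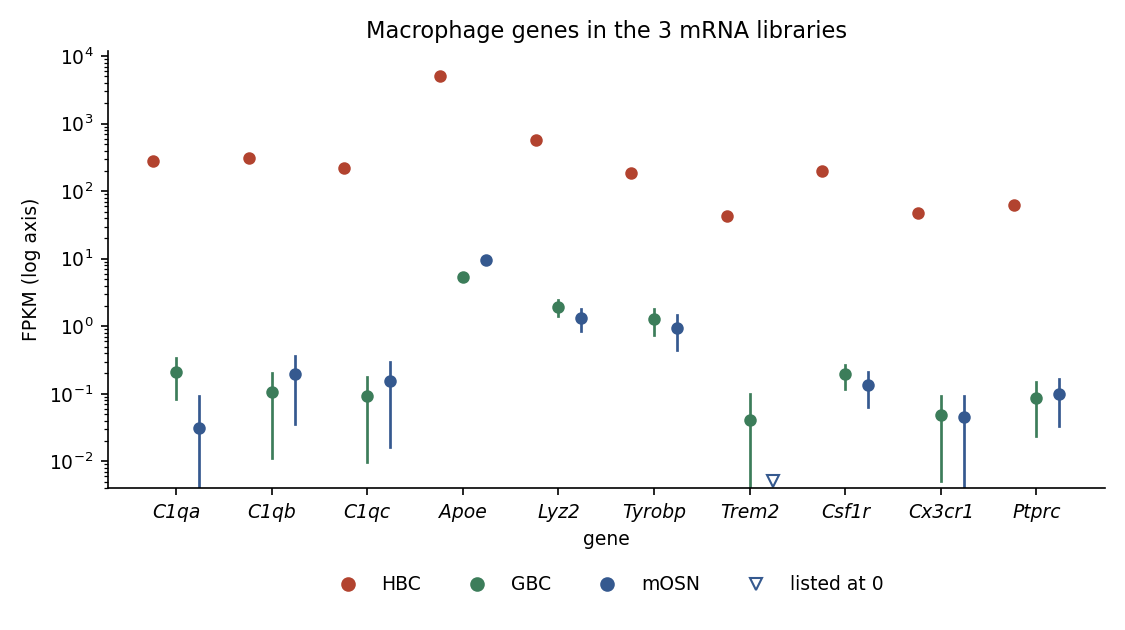
FPKM on a log axis of the 10 genes in the HBC, GBC and mOSN libraries, 1 library each, with points for the deposited value and lines for the deposited interval (cut at the axis where it reaches 0, hidden by the point where it is narrow). HBC values run between 43.5 and 5045 FPKM, and GBC and mOSN values stay at or under 9.71 FPKM, with an open triangle where Trem2 is listed at 0 in mOSN.

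The call for a higher level needed a log2 ratio of 2 or more, on FPKM plus a pseudocount of 1, together with 5 FPKM in the higher library. All 10 genes were called higher in HBC than in GBC, and all 10 higher in HBC than in mOSN. Of all genes at 5 FPKM in either library, 16.5% were called higher in HBC against GBC and 15.8% in HBC against mOSN, while 15.5% were called higher in GBC and 24% higher in mOSN. The members were chosen on this difference, so nothing is read from their count. Their log2 ratios ran between 5.42 (Trem2) and 9.65 (Apoe) for HBC over GBC, with a median of 7.51, where the median of all genes was -0.51. For HBC over mOSN the median was 7.53, where that of all genes was -0.79. The pseudocount understates these ratios, and that of Trem2 over mOSN (5.48) rests on it, since Trem2 is listed at 0 there. Over all called genes the share higher in HBC was 51.6% against GBC and 39.7% against mOSN. With median-of-ratios scaling these shares were 65.2% and 54.1%, and against mOSN the share was 50.7% with libraries rescaled to a common sum and 51.3% with 1 conversion factor per gene. Rescaling to a common sum also lowered the pseudocount and the floor relative to FPKM.

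On FPKM without a pseudocount, the fold of HBC over GBC was smallest for Tyrobp, at 146 (95% exact binomial interval on the fragments, 97.4 to 231), and Lyz2, at 296 (227 to 393). It was 955 (869 to 1052) for Apoe and 2880.2 (1234 to 8873) for C1qb. The fragments behind 1 FPKM of a gene differed between libraries, at 28.5 in HBC and 82.2 in GBC for Apoe and at 338 in HBC and 88.5 in GBC for Ptprc. On fragments as a share of the library total the fold of HBC over GBC was therefore 331 (301.1 to 364) for Apoe and 2674 (1357 to 6194) for Ptprc, against 955 and 738 on FPKM. Between those scales the fold moved by over 1.5 times for 7 of the 10 genes, and Csf1r, Tyrobp and Lyz2 were the exceptions.

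The values left in the neuronal libraries were small shares of the HBC level, and the shares were not alike. The FPKM in mOSN had a median of 0.0833% of that in HBC over the 10 genes, and the FPKM in GBC a median of 0.0993%. Tyrobp kept the largest share, 0.509% in mOSN (95% exact Poisson interval 0.278 to 0.853) and 0.683% in GBC (0.433 to 1.03). On FPKM Lyz2 followed with 0.229% in mOSN (0.157 to 0.323) and 0.338% in GBC (0.254 to 0.4397). Among the C1q genes the share was between 0.0108% (C1qa) and 0.0713% (C1qc) in mOSN and between 0.0347% (C1qb) and 0.0744% (C1qa) in GBC. The Tyrobp interval lay above that of each C1q gene in both libraries. Counted as fragments of the library total, Tyrobp also kept the largest share, 0.446% in mOSN and 0.669% in GBC. On that scale Apoe followed with 0.303% in mOSN and 0.302% in GBC, above Lyz2 at 0.149% and 0.232%, and Ptprc kept 0.0457% and 0.0355%. For comparison, the 20 other tissue macrophage markers at 5 FPKM in HBC kept a median of 0.137% in mOSN and 0.247% in GBC. The 12 horizontal basal cell markers kept 0.336% in mOSN and 0.199% in GBC. Larger medians were kept by 19 pan-leukocyte genes (0.299% in mOSN, 0.650% in GBC) and 9 T and NK cell markers (0.465% and 1.45%) than by the macrophage markers. The 10 genes were chosen for high HBC levels and these sets by 5 FPKM in HBC, so low shares are partly built in. In the other direction, 12 mature sensory neuron markers stood in HBC at a median of 1.37% of their mOSN level, with Omp the highest at 4.82%.

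**Figure D2:**
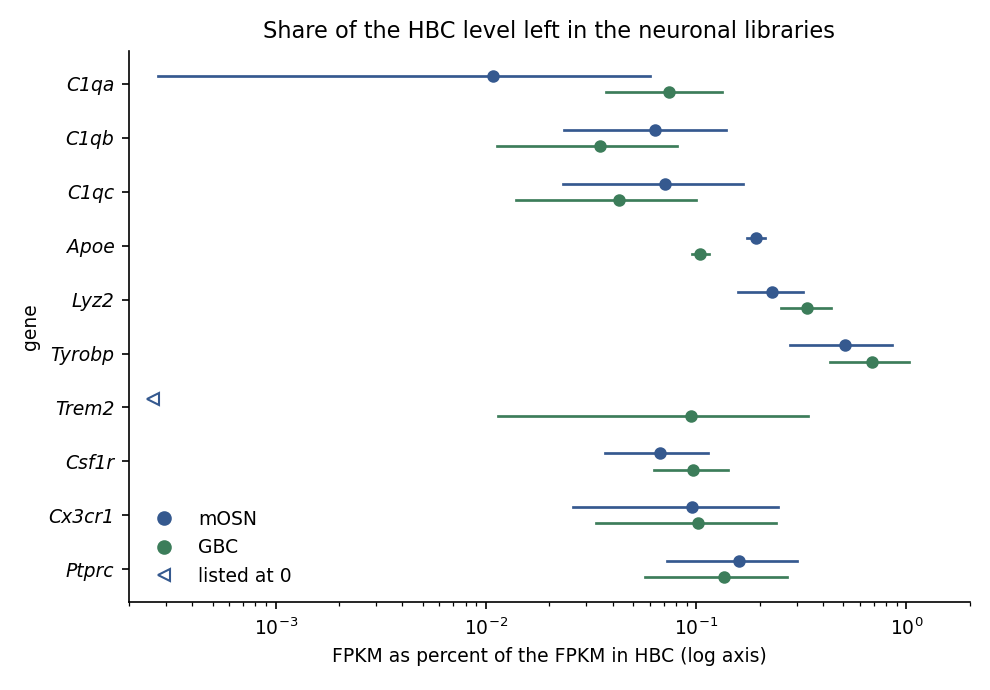
FPKM in the mOSN and GBC libraries as percent of the FPKM in HBC for each gene, on a log axis, with lines for 95% exact Poisson intervals on the implied fragments. Tyrobp sits highest at 0.509% and 0.683%, and an open triangle marks Trem2, listed at 0 in mOSN.

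Between the neuronal libraries, which share a kit, none of the 10 genes was called in either direction, where 7.12% of all genes were called higher in mOSN and 3.16% higher in GBC. At 5 FPKM in either library there was only Apoe, so no other member could have been called. The deposited intervals overlapped for 9 of the 10 genes and were apart for Apoe. Apoe was 1.84-fold higher in mOSN on FPKM (95% exact binomial interval 1.599 to 2.11), at a log2 ratio of 0.77 where the median of all genes was 0.29. The 397 fragments of Apoe in mOSN and 434 in GBC gave a fold of 1.002 (0.872 to 1.15) as shares of the library totals, since 1 FPKM of Apoe stood for 40.9 fragments in mOSN and 82.2 in GBC. The Apoe difference was thus not seen on that scale, and the log2 ratio was 0.00 with 1 conversion factor per gene. Of 12 sustentacular markers, 3 were called higher in mOSN than in GBC and none lower (summed level 235 FPKM in mOSN and 67.6 in GBC), and their part in the Apoe value was not tested.

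The other genes differed between mOSN and GBC by less than their counting error on FPKM. Lyz2 had a fold of 0.679 (0.425 to 1.07), Tyrobp 0.744 (0.354 to 1.51) and Csf1r 0.702 (0.339 to 1.395). C1qa had the lowest fold, 0.146 (0.00339 to 1.003), from 1 fragment in mOSN and 11 in GBC, and its interval on shares of fragments was 0.00231 to 0.685, below 1. C1qb and C1qc, its neighbours, had folds of 1.83 (0.467 to 7.60) and 1.66 (0.382 to 7.21). The intervals of C1qb and C1qc leave room for differences of several fold in either direction, while those of Lyz2, Tyrobp and Csf1r end at or under 1.51 on the side of mOSN.

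**Figure D3:**
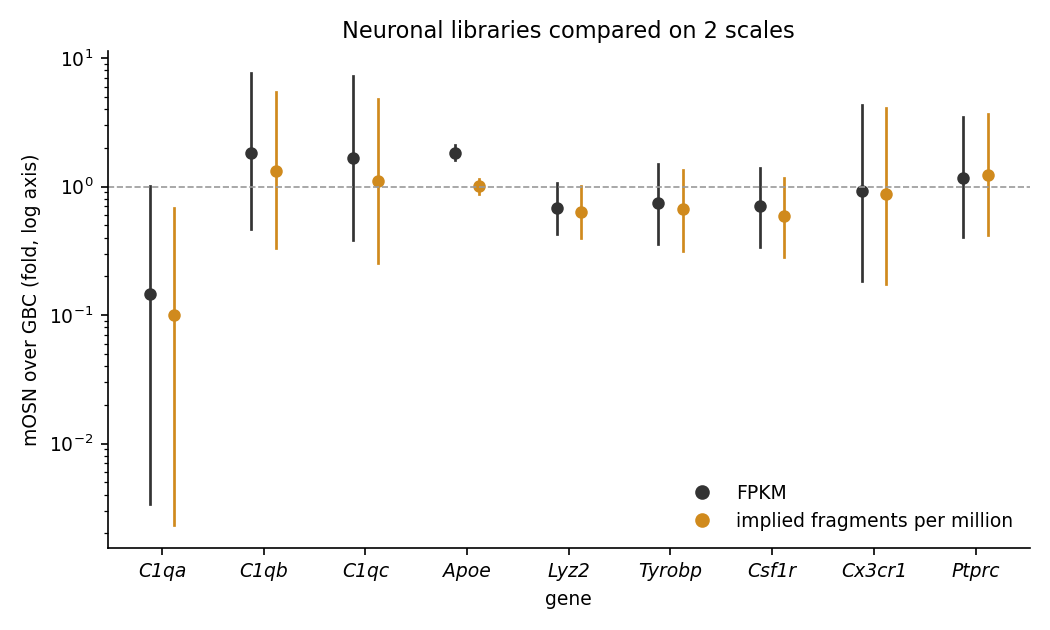
Fold of mOSN over GBC on a log axis for 9 genes (Trem2, listed at 0 in mOSN, is left out), on FPKM and on implied fragments scaled to library size, with 95% exact binomial intervals. Apoe is at 1.84 on FPKM and at 1.002 on fragments.

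The C1q chains were more abundant in HBC, on the FPKM scale, than any other gene of the classical cascade measured. Genes of this and the following lists are counted out of those at 5 FPKM in either library, beside the 16.5% of all genes called higher in HBC than in GBC. A gene that reached 5 FPKM through HBC alone was likely to be called, so these counts are descriptions. Of 19 matched genes of the classical cascade, 5 could be called and 3 were higher in HBC, against GBC and likewise against mOSN (median log2 ratio 1.54 for HBC over mOSN among genes at 1 FPKM). C3, the central component, had 35.0 FPKM in HBC, against 0.0745 in GBC and 0.0344 in mOSN. The proteases that C1q activates were low, with C1s at 9.25 FPKM in HBC, against 0.0135 in GBC and 0.0657 in mOSN and C1ra at 2.67, 0.0599 and 0.0728 FPKM in the same libraries. Serping1, the inhibitor of those proteases, had 9.73 FPKM in HBC, against 8.35 in GBC and 2.68 in mOSN. C1qbp, a largely mitochondrial protein named for binding C1q, was similar throughout, at 20.7 FPKM in HBC, against 18.8 in GBC and 20.1 in mOSN.

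Of 21 complement receptors and regulators, 12 could be called, 8 were higher in HBC than in GBC and none lower (median 2.35). Itgb2, the shared chain of the integrin complement receptors, had 73.2 FPKM in HBC, against 0.114 in GBC and 0.101 in mOSN. Calr, an endoplasmic reticulum chaperone that also binds C1q, had 180.1 FPKM in HBC, against 116 in GBC and 129 in mOSN. Cd55, which protects cells from complement, was highest in mOSN, at 42.3 FPKM, against 7.15 in GBC and 11.6 in HBC. It was called higher in mOSN than in GBC and was not called between HBC and either of them.

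Around Apoe, 24 of 31 genes of lipid uptake, storage and efflux could be called, 15 were higher in HBC than in GBC and 1 lower (median 2.25). Against mOSN, 17 were higher in HBC and 1 lower, the Apoe receptor gene Lrp8 (1.17 FPKM in HBC, against 5.07 in GBC and 13.5 in mOSN). Lrp1, a receptor of Apoe, had 62.2 FPKM in HBC, against 1.94 in GBC and 1.46 in mOSN, and the cholesterol exporter Abca1 had 39.2, 0.317 and 0.0583 FPKM in the same order. The lipase gene Lpl had 5.07 FPKM in HBC, against 0.176 in GBC and 0.0770 in mOSN. Receptors and binding proteins were not all on the HBC side. The fatty acid-binding protein gene Fabp5 was the gene higher in GBC, with 3.59 FPKM in HBC, against 61.7 in GBC and 1.72 in mOSN. The scavenger receptor gene Cd36 had 37.7 FPKM in HBC, against 1.02 in GBC and 19.7 in mOSN.

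Of 27 genes of Tyrobp and Trem signalling, 21 could be called, 19 were higher in HBC than in GBC and none lower (median 3.09), and 19 were higher against mOSN. Fcer1g, an adaptor that like Tyrobp carries an activation motif, had 176 FPKM in HBC, against 0.175 in GBC and 0.0629 in mOSN. Fcer1g and Tyrobp were thus close in HBC, while Tyrobp was the higher in both neuronal libraries. Hcst, the adaptor gene 133 bases from Tyrobp, was low, with 3.52 FPKM in HBC, against 0.769 in GBC and 0.298 in mOSN. The phosphatase gene Ptpn6 had 57.7 FPKM in HBC, against 11.6 in GBC and 6.93 in mOSN, and the sheddase gene Adam10 had 20.7, 8.90 and 9.27 FPKM.

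The list of Csf1r ligands and myeloid transcription factors had 18 genes, of which 15 could be called, 13 were higher in HBC than in GBC and none lower (median 4.07), and 14 were higher against mOSN. Of the ligands of Csf1r, Csf1 had 8.95 FPKM in HBC, against 0.123 in GBC and 0.953 in mOSN, and Il34 stayed under 0.4 FPKM, at 0.348 in HBC, against 0.167 in GBC and 0.251 in mOSN. The PU.1 gene (Sfpi1 in the files) had 54.7 FPKM in HBC, against 0.0387 in GBC and 0.0229 in mOSN. The most abundant factors of the list were Nr4a1 (697 FPKM in HBC, against 9.69 in GBC and 24.3 in mOSN), Klf4 (195, 0.945 and 3.15 FPKM) and Cebpb (137, 3.09 and 12.4 FPKM). They are also known as early response or epithelial genes and are not particular to macrophages. Cx3cl1, the ligand of Cx3cr1, had 29.3 FPKM in HBC, against 0.392 in GBC and 7.25 in mOSN.

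Other leukocyte markers were read in the same way. Of 24 other tissue macrophage markers, 20 could be called and all 20 were higher in HBC than in GBC (median 5.67), led by Ctss (638 FPKM in HBC, against 0.534 in GBC and 0.197 in mOSN), Sepp1 (262, 0.372 and 1.23 FPKM) and Cd14 (211, 0.540 and 0.405 FPKM). Of 20 pan-leukocyte genes, 19 could be called and all 19 were higher in HBC, led by Laptm5 (232 FPKM in HBC, against 0.673 in GBC and 0.408 in mOSN), and Coro1a was the gene called lower in mOSN (1.06 FPKM) than in GBC (8.47 FPKM). Of the markers that could be called, those of microglia were higher in HBC than in GBC for 7 of 7, of monocytes for 10 of 10 and of dendritic cells for 5 of 7. The same held for 6 of 6 neutrophil markers, 9 of 9 T and NK cell markers, 1 of 1 B cell markers and 0 of 2 mast cell markers. Of the non-blood lists, it held for 6 of 9 sustentacular, 4 of 4 fibroblast and endothelial and 1 of 2 ensheathing glia markers. All 4 of the fibroblast and endothelial list were fibroblast genes, and its endothelial genes stayed under 5 FPKM in HBC and in GBC. Mature sensory neuron markers were lower in HBC than in GBC for 8 of 12 and neuronal precursor markers for 11 of 11, where 15.5% of all genes were lower. The T cell receptor component gene Cd3g had 25.4 FPKM in HBC and the neutrophil gene S100a9 60.2, and their part in the levels of Ptprc and Lyz2 was not tested. The scavenger receptor gene Marco, with 0.142 FPKM in HBC, was the lowest of the macrophage markers.

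**Figure D4:**
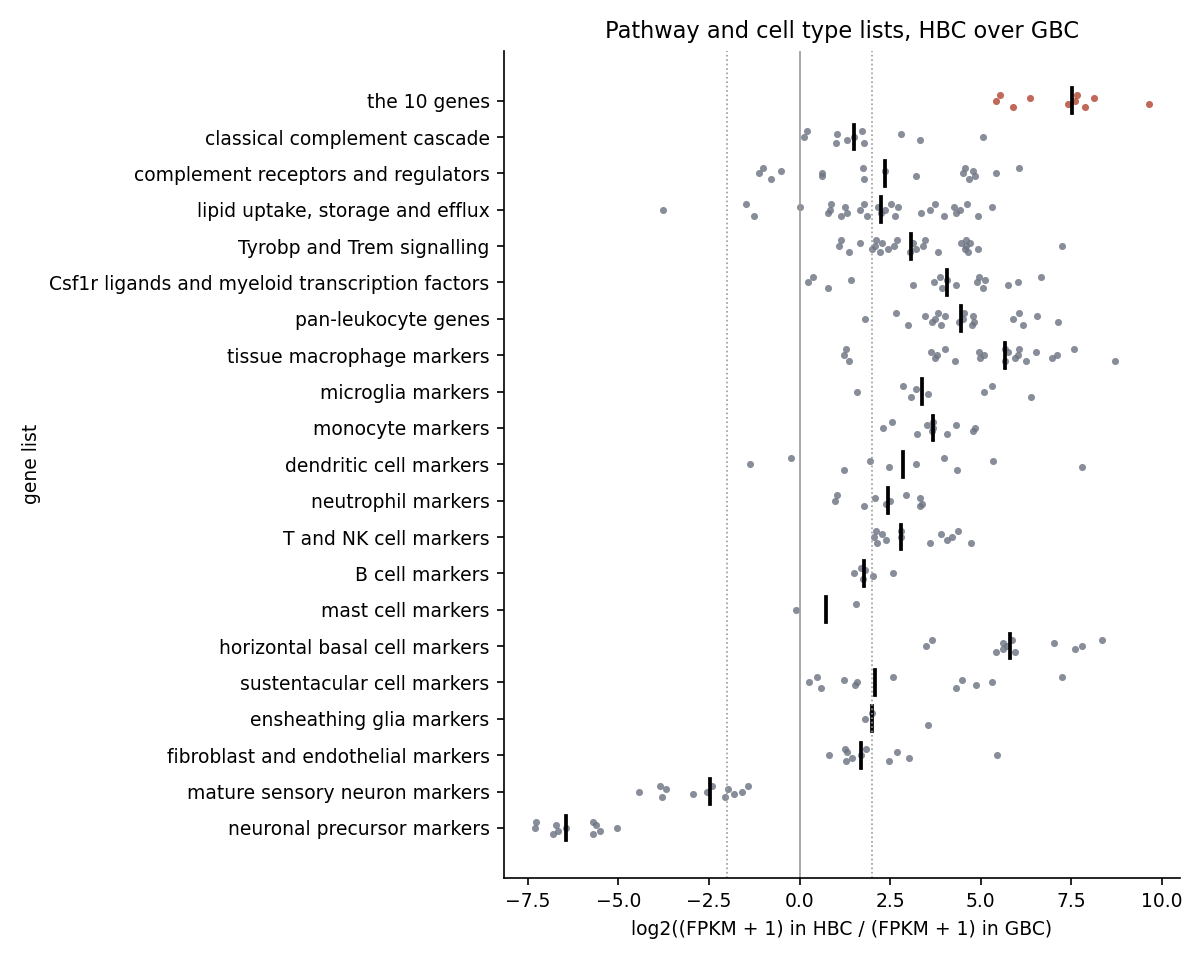
Log2 ratio of FPKM plus 1 in HBC over GBC for each gene at 1 FPKM or more in either library, by list, with the 10 genes on top, a black bar for the median and dotted lines at 4-fold. The 10 genes have a median of 7.51, tissue macrophage markers 5.67, horizontal basal cell markers 5.80 and neuronal precursor markers -6.44.

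Apart from one another, the 10 genes had 16 nearest neighbours in the files. Of these, 5 reached 5 FPKM in HBC or GBC and could be called, and 2 of them, Apoc1 beside Apoe and Lyz1 beside Lyz2, were called higher in HBC than in GBC, where 16.5% of all genes at that level were. Under that level, Ccr8 beside Cx3cr1 stood at 3.10 FPKM in HBC against 0.0322 in GBC, and B430306N03Rik beside Trem2 had 1.12 and 0.101 FPKM. Apoc1, an apolipoprotein gene 3586 bases from Apoe, had 12.0 FPKM in HBC, against 0.0677 in GBC and 0.0791 in mOSN. On its other side, Tomm40, a mitochondrial import gene 2147 bases away, had 5.41 FPKM in HBC, against 15.6 in GBC and 14.4 in mOSN. The C1q cluster was flanked by the receptor genes Ephb2 (7.54 FPKM in HBC, against 8.13 in GBC and 0.203 in mOSN) and Epha8, which stayed under 0.1 FPKM. Hmgxb3, 138 bases from Csf1r, had 5.29 FPKM in HBC, against 7.16 in GBC and 21.9 in mOSN.

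The genes whose levels over the 3 libraries were most like the mean of the C1q chains, by Euclidean distance on log2(FPKM + 1), were Tgm2 (distance 0.284), Bcl2a1b (0.385), H2-Eb1 (0.454), Cd83 (0.459) and Krt17 (0.575). Tgm2 had 228 FPKM in HBC, against 0.258 in GBC and 0.0773 in mOSN. Krt17, a keratin of basal epithelium, had 286 FPKM in HBC, against 0.478 in GBC and 0.508 in mOSN, so an epithelial gene was among those nearest to the C1q profile. No gene was as near to Apoe. The closest were 5430413K10Rik (distance 2.81), the cytochrome gene Cyp2f2 of supporting cells (2.82; 748 FPKM in HBC, against 3.97 in GBC and 14.3 in mOSN) and Nr4a1 (3.20). With 3 libraries such a likeness cannot tell cell types apart.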

How the data were processed

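The series has 9 samples, of which 3 messenger RNA libraries were analysed; 3 samples of 5-hydroxymethylcytosine and 3 of 5-methylcytosine were not analysed here. The authors deposited FPKM per gene with the bounds of its interval, per the file headers. Bowtie, TopHat, Cufflinks and build mm9 are named in the submitters' processing notes, without versions. Poly-A RNA was used, per the labels' protocols. The sources used here name no annotation and no options. Samples were grouped by their titles.

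Rows of 1 symbol were added up. An implied fragment count is the square of 2 FPKM divided by the interval's half-width. Of values with at most 100 fragments, 77.6% (HBC), 69.1% (GBC) and 69.0% (mOSN) lay within 0.03 of a whole number. All 30 member values had the status OK. Ratios were log2((FPKM + 1)/(FPKM + 1)), called at 4-fold with 5 FPKM in the higher library. No count test was run, since each group had 1 library. Clopper-Pearson and Poisson intervals of 95% came from SciPy 1.17.1. The calling rule was tried on simulated fragments with planted fold changes and counting error only. The simulation used the same fragments per FPKM for both libraries of a comparison. It therefore does not bear on differences of kit or conversion between the real libraries.

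The 10 genes and 20 lists (304 of 308 symbols matched, 3 through synonyms) were chosen with earlier results of these data known; Itgb2, Siglech and Cr2 stand in 2 lists each. Named genes were the 10, the 3 most abundant of each list described, fixed partner genes (1 is not reported here) and those of most like profile; flanking genes, Lrp8, Marco, Sox10, Gfap and 5 sustentacular genes were named after their values were seen. Protein comparisons planned in the design were not run, for want of protein sequences. Alternatives were 10: pseudocounts of 0.1 and 5 FPKM, floors of 0 and 20 FPKM, 2 scalings, 1 conversion factor per gene, the highest row per symbol, status OK only, and intervals apart.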

Additional observations from a re-analysis of the deposited data

How the results depend on the processing

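All 10 genes were called higher in HBC than in GBC and than in mOSN, and none was called between mOSN and GBC, under each of the 10 alternatives. The 10 genes were chosen for their high HBC levels, so the calls for HBC had little room to change. At the reported floor of 5 FPKM only Apoe could have been called between mOSN and GBC. The floors and the interval criterion cannot change a log2 ratio, and the choice of row and of status left all 30 as they were. Of these 30, 19 moved by more than their counting error with each pseudocount and with a common sum, 7 with 1 conversion factor per gene and 3 with median-of-ratios scaling, and no called one changed sign. With 1 conversion factor per gene the HBC over GBC log2 ratio was 8.22 for Apoe (9.65 as reported), 8.10 for Lyz2 (7.61) and 7.16 for Ptprc (5.89), and the mOSN over GBC ratio of Apoe was 0.00 (0.77), which was 0.52 with a pseudocount of 5 FPKM and 0.49 with a common sum. Over all genes the calls were 1503 higher in HBC and 1410 in GBC, 1549 in HBC and 2351 in mOSN, and 618 in mOSN and 274 in GBC. A pseudocount of 5 FPKM gave 643 and 504, 645 and 918, and 173 and 88. A floor of 20 FPKM gave 638 and 663, 632 and 1143, and 305 and 109. A common sum gave 2753 and 2771, 3146 in HBC against mOSN, and 957 in GBC against mOSN, and 1 conversion factor 477 in GBC against mOSN. Between mOSN and GBC the share of calls higher in mOSN was 69.3%, and 45.7% with a common sum or 54.7% with 1 conversion factor. List counts moved by over 1.5 times mostly with a pseudocount of 5 FPKM (24), a floor of 20 FPKM (23) and a common sum (22). No replicate could be left out, and no paired analysis was possible because each population has 1 library. Depth limits the neuronal values of 8 of the 10 genes, which rest on 26 fragments or fewer in each neuronal library. Apoe and Lyz2 were the exceptions.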
